A study of Mus musculus with 24 samples.

Results

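Of the 23947 gene symbols with an expression value in this mouse series, 7 are described here: Pmel, Tyrp1, Dct, Tyr and Mlana, which pigment cells use to build melanin and the organelle that holds it, Mitf, their transcriptional regulator, and Optc, a proteoglycan gene of the ciliary body. They were chosen by their RPKM in the same libraries that are described below, because most of them were high in the lens epithelium library. Their levels and ratios are therefore a description, with no test. RNA was sequenced from CD-1 mice as 1 library each of lens epithelium at P1, lens fiber at P1 and forebrain at E12.5. CD-1 is an albino outbred stock, so its pigment cells are present but hold no melanin. No genotype other than this strain, no treatment and no number of animals per library is given in the labels. With 1 library per group, no difference below was checked against replicates, and in each comparison with forebrain the tissue and the age cannot be told apart. Libraries were made from bulk RNA, in which fewer cells of a type and less RNA per cell cannot be told apart.

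Pigment cells make melanin in melanosomes, organelles related to lysosomes, in which the amyloid protein encoded by Pmel forms the fibrils that carry the pigment and the tyrosinase family enzymes oxidise tyrosine and its products. Mitf, a basic helix-loop-helix leucine zipper factor, activates these genes by binding E-box sequences. Pigmented cells of the eye are the retinal pigment epithelium, the outer ciliary body layer, the iris epithelium and the melanocytes of the uvea. All of them lie outside the lens. The ciliary body borders the rim of the lens, and its inner, unpigmented layer secretes vitreous components, opticin among them.

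The markers of the labelled lens tissues were present, although not all of them told epithelium from fiber. Of 7 lens epithelium markers, all 7 were at 1 RPKM or more in the epithelium library and 5 in the fiber library, and 4 were at least 4-fold higher in epithelium than in fiber, with Pax6 at 142 RPKM in epithelium, 24 RPKM in fiber and 28.1 RPKM in forebrain, and the forkhead factor Foxe3 at 19.4, 0.433 and 0 RPKM. The 3 others were within 4-fold between the lens libraries, Trpm3 at 201 RPKM in epithelium and 85.3 RPKM in fiber, Pitx3 at 35 and 37.3 RPKM and Clu at 238 and 450 RPKM. The 8 fiber markers summed to 1274 RPKM in epithelium and 430411 RPKM in fiber, and crystallins made up 9.08% and 85.5% of the RPKM of protein-coding genes in these libraries. The total number of reads is unknown. Genes low in both libraries had a commonest ratio of forebrain to epithelium RPKM of 1.51 (98 of 345 such genes). This is the ratio that 1 read in each library would give if epithelium had been sequenced deeper by that factor. For fiber to epithelium the commonest ratio was 3.03 (25 of 218 such genes). For fiber to forebrain the commonest ratio was 1.85 (22 of 172 such genes). Read the same way, 1 read stood for the most RPKM in fiber, so values of 0 there are the least certain. In both fiber comparisons a smaller share of the low genes lay at the commonest ratio, so this reading is weaker for fiber. If the low forebrain values of Tyr, Pmel and Tyrp1 came from at least 1 read each, their epithelium values stood for at least about 362, 869 and 1630 reads.

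The structural and membrane proteins of the melanosome come first. Pmel had 52.7 RPKM in lens epithelium, against 0.754 RPKM in lens fiber and 0.0916 RPKM in forebrain. Epithelium was thus the only library with Pmel above 1 RPKM, and 696 of 20418 protein-coding genes had a higher value there. On the scale log2((RPKM + 1)/(RPKM + 1)), which understates differences of low genes and is used for all log2 ratios here, Pmel stood at 4.94 for epithelium over fiber and 5.62 for epithelium over forebrain. Mlana, which encodes a small membrane protein of early melanosomes, had 9.57 RPKM in epithelium and was listed at 0 in fiber and in forebrain. It was the only member at 0 in both other libraries, so no fold is given and its log2 ratio of 3.40 in both comparisons depends on the added 1 RPKM.

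Of the tyrosinase family, Tyr encodes the enzyme of the first steps of melanin synthesis, Dct the dopachrome tautomerase and Tyrp1 a related enzyme of the later, eumelanin branch. Tyrp1 had 21.2 RPKM in lens epithelium, 0.0619 RPKM in lens fiber and 0.0196 RPKM in forebrain, ratios of RPKM of 342 and 1080. Dct had 24.1 RPKM in epithelium, 0.0473 RPKM in fiber and 4.74 RPKM in forebrain. It was the member with the highest forebrain value, and its ratio of RPKM was 511 for epithelium over fiber but 5.10 for epithelium over forebrain. Dct is a known transcript of the embryonic telencephalon. Tyr had 3.76 RPKM in epithelium, was listed at 0 in fiber and had 0.0157 RPKM in forebrain. It was the lowest of the 7 genes in the epithelium library, with 8270 protein-coding genes above it, and its log2 ratios were 2.25 over fiber and 2.23 over forebrain. Together the 3 family members summed to 49.1 RPKM in epithelium, 0.109 RPKM in fiber and 4.77 RPKM in forebrain, and Dct alone made up nearly all of the forebrain sum.

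The promoters of these 3 enzymes are shown because they share the E-box that Mitf is known to bind. RefSeq windows on build GRCm38.p6, each with 250 bases before and 50 after the annotated start, were at hand for 5 of the 7 members (Tyrp1, Dct, Tyr, Optc and 3 starts of Mitf). The windows lie at chr4:80833963-80834262 on the plus strand for Tyrp1, chr14:118052197-118052496 on the minus strand for Dct and chr7:87493463-87493762 on the minus strand for Tyr. They are printed 5′ to 3′ along the gene, with the motif CATGTG, on either strand, in capitals.
Tyrp1: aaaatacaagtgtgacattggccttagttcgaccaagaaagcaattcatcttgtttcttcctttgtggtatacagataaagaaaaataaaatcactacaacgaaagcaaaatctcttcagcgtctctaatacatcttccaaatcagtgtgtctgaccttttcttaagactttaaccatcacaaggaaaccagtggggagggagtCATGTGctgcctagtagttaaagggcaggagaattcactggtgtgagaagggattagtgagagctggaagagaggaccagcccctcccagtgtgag
Dct: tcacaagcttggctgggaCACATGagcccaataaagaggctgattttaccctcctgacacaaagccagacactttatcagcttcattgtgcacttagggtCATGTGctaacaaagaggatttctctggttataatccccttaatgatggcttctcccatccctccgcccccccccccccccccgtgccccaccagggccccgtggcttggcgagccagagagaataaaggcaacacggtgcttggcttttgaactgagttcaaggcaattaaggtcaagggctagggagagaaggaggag
Tyr: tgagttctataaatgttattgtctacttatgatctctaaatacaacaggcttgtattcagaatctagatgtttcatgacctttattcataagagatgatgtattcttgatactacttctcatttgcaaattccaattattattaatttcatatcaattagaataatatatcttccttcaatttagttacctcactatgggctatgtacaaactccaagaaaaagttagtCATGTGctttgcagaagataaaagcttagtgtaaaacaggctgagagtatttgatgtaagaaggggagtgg

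The motif CATGTG was present in the windows of 3 members, Tyrp1, Dct and Tyr, and its longer form TCATGTG at each of these sites. Of all 32851 promoter windows, 14.2% held CATGTG and 3.77% held TCATGTG on either strand, the longer form being part of the shorter one. Counted from the annotated start, with -1 as the last base before it, the motif began at -46 in Tyrp1, at -150 and, on the opposite strand, at -232 in Dct, and at -21 in Tyr. The longest run that the 3 windows share was gtCATGTGct (10 bases, capitals as before), found after their letters were seen, and 61 of the 32851 windows (0.186%) held it on either strand. The palindromic E-box CACGTG was in 7.15% of all windows and in none of the 7 windows of members. CATGTG was not in the windows of Optc and Mitf. These matches describe letters in a window, and binding of Mitf was not measured.

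**Figure D1:**
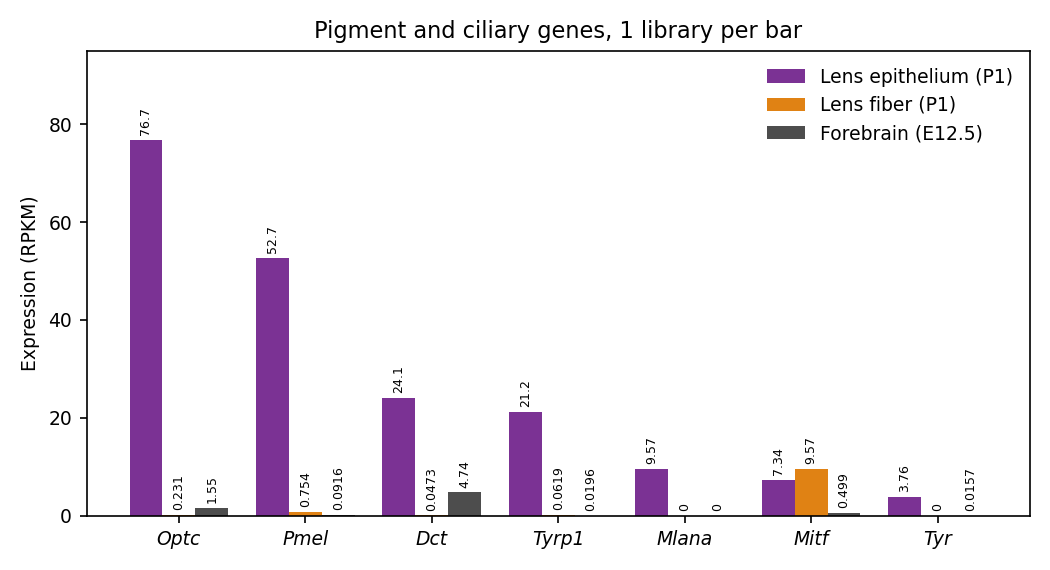
RPKM of the 7 genes (x axis, ordered by their epithelium value) in lens epithelium, lens fiber and forebrain, with 1 library per bar and the value written above it. In 6 of the genes the epithelium bar is the highest, from 76.7 RPKM for Optc to 3.76 RPKM for Tyr, and Mitf has its highest bar, 9.57 RPKM, in fiber.

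Mitf had a different order of libraries from the genes it is known to activate. It had 7.34 RPKM in lens epithelium, 9.57 RPKM in lens fiber and 0.499 RPKM in forebrain. The lens libraries were thus close together and the forebrain library was low. The log2 ratio was 2.48 for epithelium over forebrain and 2.82 for fiber over forebrain, and -0.34 for epithelium over fiber, a direction that turned to 0.10 when libraries were rescaled to equal sums without crystallins. In the fiber library, where Mitf had 9.57 RPKM, the 6 other members, Optc among them, summed to 1.09 RPKM, against 188 RPKM in epithelium. Most members were chosen for high epithelium values, so nothing is read from this contrast. Mitf has several promoters with their own first exons, of which the melanocyte form is one, and values per gene do not tell these forms apart.

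The other 3 genes of the MiT/TFE family, which bind the same kind of E-box and control lysosome genes, did not share 1 pattern. Tfeb had 5.66 RPKM in lens epithelium, 10.3 RPKM in lens fiber and 0.393 RPKM in forebrain, an order like that of Mitf. Tfe3 varied less, at 3.87, 2.73 and 2.57 RPKM in epithelium, fiber and forebrain. Tfec, which is expressed in the retinal pigment epithelium, had 0.823 RPKM in epithelium, was listed at 0 in fiber and had 0.0980 RPKM in forebrain.

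Optc encodes opticin, a class III small leucine-rich proteoglycan of the vitreous that the unpigmented ciliary epithelium secretes. It had 76.7 RPKM in lens epithelium, 0.231 RPKM in lens fiber and 1.55 RPKM in forebrain. It was the highest of the 7 genes in the epithelium library, with 438 protein-coding genes above it, and its log2 ratio was 5.98 over fiber and 4.93 over forebrain. The order of the 7 in epithelium was Optc, Pmel, Dct, Tyrp1, Mlana, Mitf and Tyr, and with 1 library the neighbours in it (Dct and Tyrp1, for example) cannot be ranked beyond error.

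Over the 7 genes, 6 were at least 4-fold higher in lens epithelium than in lens fiber, as were 8.12% of the 12090 genes that reached 1 RPKM in one of these libraries, and 0 were at least 4-fold lower, as were 3.75% of these genes. All 7 were at least 4-fold higher in epithelium than in forebrain, against 4.68% of 12619 genes, and 0 were lower, against 3.25%. With 5 RPKM added in place of 1, 3 of the 7 (Pmel, Tyrp1 and Optc) were past 4-fold over forebrain, and Dct, Tyr, Mlana and Mitf were not. The median log2 ratio of the 7 was 4.39 over fiber and 3.40 over forebrain, against 0.42 and -0.03 over the genes compared. In fiber over forebrain, Mitf was the 1 member at least 4-fold higher (6.37% of 12205 genes) and Dct the 1 at least 4-fold lower (11.4%), calls that were both lost with 5 RPKM added, and 4 of the 7 did not reach 1 RPKM in either library. In 6 of the 7, epithelium was at least 4-fold above both other libraries, as it was for 259 of 12943 genes (2.0%). The members were picked for this pattern, so nothing is read from these counts.

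**Figure D2:**
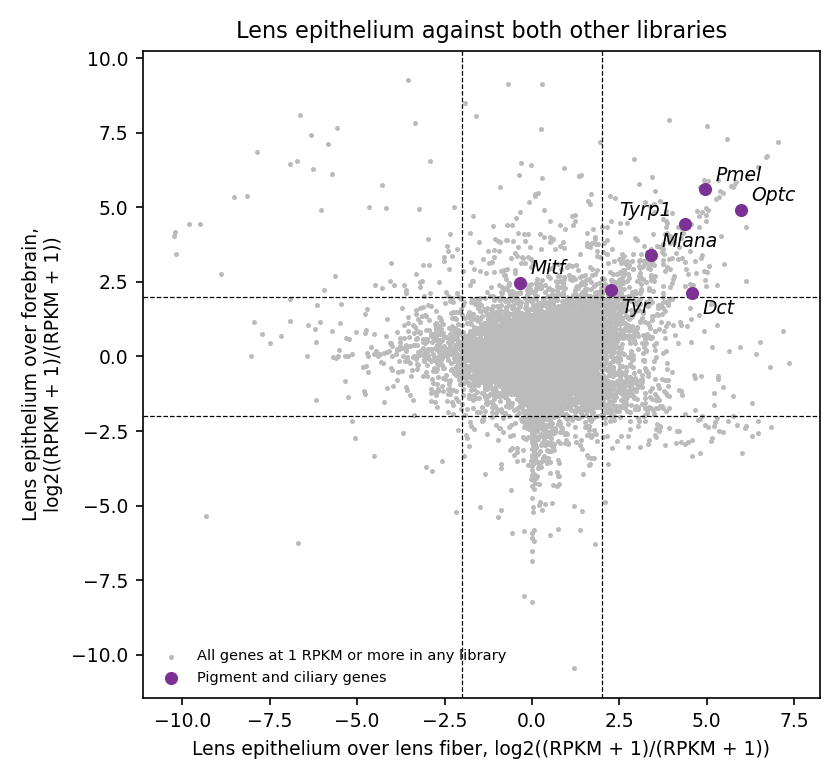
Log2 ratio of lens epithelium over lens fiber (x axis) and of lens epithelium over forebrain (y axis) for the 12943 genes at 1 RPKM or more in any library (grey points) and the 7 pigment and ciliary genes (purple points), with 4-fold marked by dashed lines. 6 members lie in the upper right corner, and Mitf lies left of it at -0.34 and 2.48.

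The genes most alike to each member were taken as the 3 protein-coding genes with the smallest distance of log2(RPKM + 1) over the 3 libraries, which is few points for a pattern. For Tyrp1 the nearest was Oca2, which encodes a melanosomal transport protein, at 20.2 RPKM in lens epithelium, 0.184 RPKM in lens fiber and 0.0385 RPKM in forebrain (distance 0.173), followed by Mgp and Grem1. Pmel lay nearest to the cadherin gene Cdh1 (0.278), Fosb (0.286) and the prostaglandin D synthase gene Ptgds (0.428). Cdh1 is among the lens epithelium markers counted above. Mlana lay nearest to Tbx20 (0.0633), Defb9 and Podn, and Tyr to Fstl4 (0.00905), Nobox and Adamts16. Tyr is low, and 44 protein-coding genes lay within 0.5 of it, against 0 for Dct and Optc. For Optc the nearest were the pericyte gene Rgs5 (0.628), the water channel gene Aqp1 (0.777) and Rhoj (0.779), and for Dct they were Hunk (0.536), Tac1 and Synpr. Mitf lay nearest to Kctd11 (0.244), March3 and Fam71e1.

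For the gene lists that follow, calls were possible only for genes at 1 RPKM or more in one of the libraries compared, and the shares of all such genes at least 4-fold higher or lower are the 8.12% and 3.75% over fiber and the 4.68% and 3.25% over forebrain given above. List medians cover every measured gene of a list, and over all symbols the medians were 0.01 and 0.00. Among 18 other genes of pigment cells, 14 could be called in each comparison. Of these, 5 were at least 4-fold higher and 1 lower in lens epithelium than in lens fiber, and 4 were higher and 0 lower than in forebrain, with list medians of 1.31 and 1.14 on the log2 scale. In 3 of them epithelium was at least 4-fold above both other libraries. Rab38, a small GTPase that carries melanosome enzymes, had 33.0 RPKM in epithelium, 0.0742 RPKM in fiber and 0.273 RPKM in forebrain. The channel gene Trpm1 had 32.1, 2.17 and 0 RPKM in epithelium, fiber and forebrain, and Oca2 is given above. Slc24a4, a calcium exchanger gene, was the 1 gene in the opposite direction, with 1.19 RPKM in epithelium and 161 RPKM in fiber. Other genes of the pathway were low in epithelium, among them the ocular albinism receptor Gpr143 at 0.531 RPKM, listed at 0 in fiber and forebrain, and the transporter Slc45a2 at 0.414 RPKM.

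The complexes that sort cargo to all lysosome-related organelles (the HPS, BLOC-1 and AP-3 genes, with Lyst, Vps33a and Rabggta) stayed within 4-fold. Of 17 genes, 0 were 4-fold higher or lower in any of the 3 comparisons, and the median log2 ratio was 0.24 for epithelium over fiber and 0.15 for epithelium over forebrain. All 17 were at 1 RPKM or more in epithelium and in fiber.

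Which pigmented cell type the epithelium library might hold was not tested, and the marker values stand side by side here. For melanocytes of the neural crest, 2 of 9 markers reached 1 RPKM in lens epithelium, and their summed level was 8.13 RPKM in epithelium, 31.0 RPKM in fiber and 23.1 RPKM in forebrain. Sox10, the factor that drives Mitf in melanocytes, was listed at 0 in epithelium, Pax3 was at 0.0116 RPKM and the receptor gene Kit at 0.934 RPKM. For the retinal pigment epithelium, 6 of 13 markers reached 1 RPKM in epithelium, with a sum of 42.8 RPKM there, 3.36 RPKM in fiber and 110 RPKM in forebrain, most of the last from the transthyretin gene Ttr. Stra6, the receptor for retinol-binding protein, made up most of the epithelium sum with 27.7 RPKM, against 1.19 RPKM in fiber and 1.54 RPKM in forebrain. Rlbp1 had 6.57 RPKM in epithelium, 0.0629 RPKM in fiber and 6.82 RPKM in forebrain. Rdh5 was at 2.54, 1.27 and 1.13 RPKM and Rrh at 1.32, 0 and 0.0499 RPKM in the same order of libraries. The retinoid isomerase gene Rpe65 was listed at 0 in epithelium, Lrat was at 0.0471 RPKM and Rgr at 0.0235 RPKM. In comparison with fiber, 2 of the 9 melanocyte markers could be called, of which 0 were at least 4-fold higher in epithelium and 1, the endothelin receptor gene Ednrb, was lower, at 5.42 RPKM in epithelium and 30.2 RPKM in fiber (list median 0.00). Over forebrain, 3 could be called and 0 were 4-fold higher or lower (list median -0.07). Of the 13 pigment epithelium markers, 6 could be called over fiber, with 2 at least 4-fold higher and 0 lower (list median 0.75), and 7 over forebrain, with 1 higher and 1 lower (list median 0.28).

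**Figure D3:**
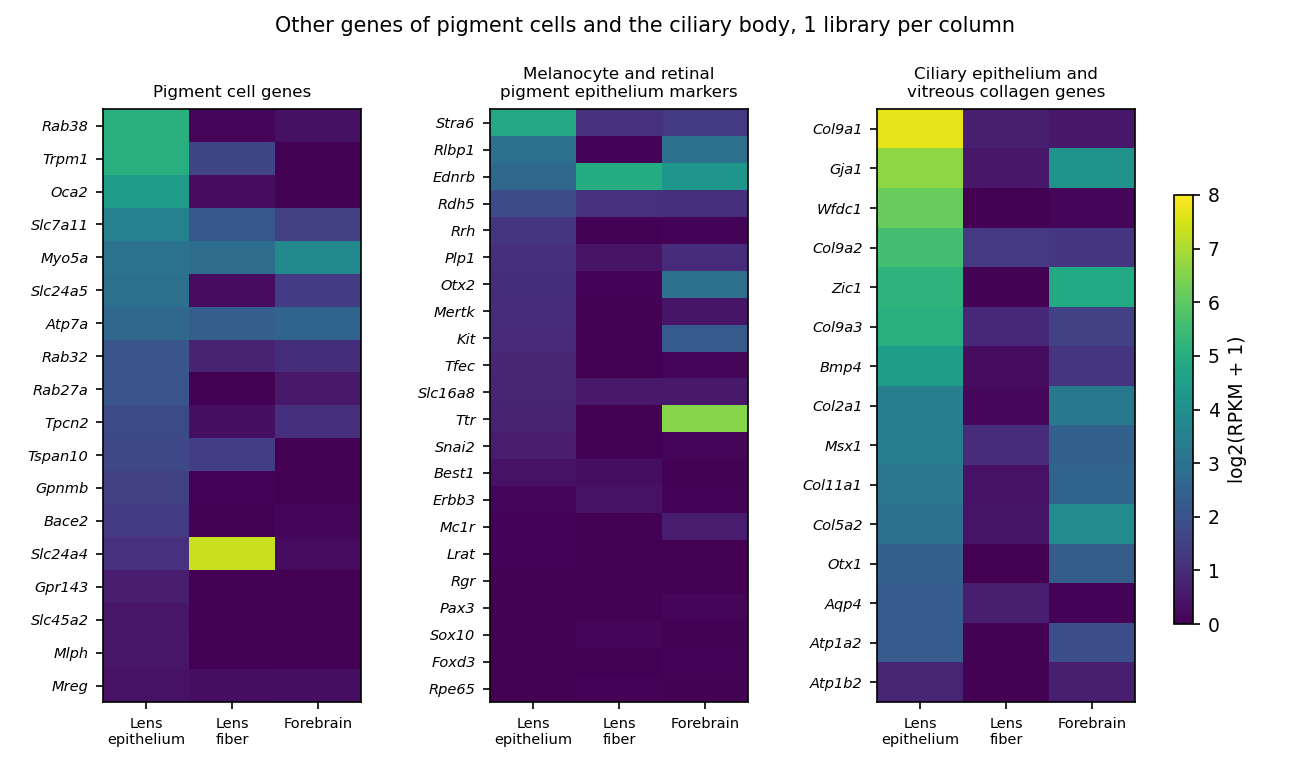
Colour shows log2(RPKM + 1) in lens epithelium, lens fiber and forebrain (columns, 1 library each) for other pigment cell genes, for markers of melanocytes and the retinal pigment epithelium, and for ciliary epithelium and vitreous collagen genes (rows, ordered by epithelium). Rab38, Trpm1, Oca2, Stra6 and Col9a1 are high in the epithelium column, Sox10 and Rpe65 are at 0 there.

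Most ciliary epithelium genes were higher in lens epithelium than in lens fiber. Of the 10 measured, 9 could be called in each comparison, and 8 were at least 4-fold higher in epithelium than in lens fiber and 5 than in forebrain, with medians of 3.33 and 1.59, and 0 were 4-fold lower in either comparison. Their sum was 456 RPKM in epithelium, 2.92 RPKM in fiber and 58.7 RPKM in forebrain. Col9a1, at 207 RPKM, and Gja1, at 98.8 RPKM, together made up most of the epithelium sum. Wfdc1, a whey acidic protein domain gene of the ciliary margin, had 70.1 RPKM in epithelium, was listed at 0 in fiber and had 0.0712 RPKM in forebrain. Bmp4, a ligand needed for the ciliary body, had 20.9, 0.211 and 1.28 RPKM in epithelium, fiber and forebrain. The gap junction gene Gja1 had 98.8, 0.440 and 16.4 RPKM in these libraries, and lens epithelium itself is known to express it. Zic1 had 35.7 RPKM in epithelium, 0.0323 RPKM in fiber and 28.4 RPKM in forebrain and was thus shared with forebrain.

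Opticin binds the heterotypic collagen fibrils of the vitreous, and 6 genes for these collagens were measured. All 6 were at least 4-fold higher in lens epithelium than in lens fiber (median 3.69), and 3 were than in forebrain (median 2.03). These 3 encode the chains of type IX collagen. Col9a1, which is also in the ciliary list, had 207 RPKM in epithelium, 0.589 RPKM in fiber and 0.438 RPKM in forebrain. Col9a2 had 47.6, 1.5 and 1.42 RPKM and Col9a3 had 32.0, 0.895 and 1.96 RPKM in the same order of libraries. The cartilage and vitreous collagen gene Col2a1 was at 9.66 RPKM in epithelium, 0.116 RPKM in fiber and 8.45 RPKM in forebrain.

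Of the 11 small leucine-rich proteoglycans, 4 could be called over fiber, with 1 at least 4-fold higher in lens epithelium and 1 lower. Over forebrain 6 could be called, with 2 higher and 2 lower. Optc, a member chosen on these values, was the 1 gene at least 4-fold higher in lens epithelium than in both other libraries. Ogn, a class III relative, had 37.0 RPKM in epithelium, 167 RPKM in lens fiber and 2.15 RPKM in forebrain. Epyc, the remaining class III gene, was listed at 0 in epithelium and in fiber and had 0.306 RPKM in forebrain. Prelp, the gene next to Optc in the RefSeq order, was at 0.709, 0 and 0.225 RPKM in epithelium, fiber and forebrain. Over the whole family the medians were 0.40 for epithelium over fiber and -0.08 for epithelium over forebrain.

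Genes that act on Mitf in the eye were also read out. Pax6 and Otx factors work with Mitf in the pigment epithelium. Of 10 such genes, 7 could be called over fiber and 8 over forebrain, and 5 were at least 4-fold higher in lens epithelium than in lens fiber and 3 than in forebrain, with medians of 2.0 and 0.01, and 1 was 4-fold lower than in forebrain. Otx2 was at 1.07, 0.05 and 6.80 RPKM and Otx1 at 4.62, 0 and 4.16 RPKM in epithelium, fiber and forebrain.

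Markers of several other tissues were higher in lens epithelium than in lens fiber, in part or as a whole list, and their part in the results on the pigment genes was not tested. Of 13 retina genes, 4 reached 1 RPKM in epithelium and 3 were at least 4-fold higher in lens epithelium than in both other libraries. Among them were the early eye field factors Rax, at 15.8 RPKM in epithelium, 0 in fiber and 0.188 RPKM in forebrain, and Six6, at 8.35, 0.129 and 0.0143 RPKM. The photoreceptor genes Nrl and Gnat1 were at 0.0682 and 0.0505 RPKM in epithelium, and the list median was 0.10 over fiber and 0.17 over forebrain. All 8 endothelium and pericyte markers were at least 4-fold higher in epithelium than in fiber and 2 than in forebrain, with a sum of 140 RPKM in epithelium, 2.37 RPKM in fiber and 28.8 RPKM in forebrain, led by Rgs5 at 78.5 RPKM in epithelium. Of 8 macrophage markers, 7 could be called in each comparison, and 4 were at least 4-fold higher than in fiber and 0 than in forebrain, summing to 34.8, 1.51 and 18.0 RPKM in epithelium, fiber and forebrain. Of the 5 blood markers measured, 3 could be called over fiber and 4 over forebrain, with 2 higher than in fiber and 0 higher and 1 lower than in forebrain, and the sum was 344 RPKM in epithelium, 5.97 RPKM in fiber and 1131 RPKM in forebrain.

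Other neighbours of the lens were low in the same library. The 8 mesenchyme and corneal stroma markers summed to 7.00 RPKM in lens epithelium, 1.20 RPKM in lens fiber and 70.2 RPKM in forebrain. Over fiber 3 of them could be called, with 0 at least 4-fold higher or lower in epithelium. Over forebrain 6 could be called, with 0 higher and 2 lower. With so few genes called, the counts of 0 higher are not set apart from the shares of all genes. The 8 markers of cornea and surface epithelium summed to 1.12, 0.0936 and 0.279 RPKM, none of them reached 1 RPKM in any library, and the keratin gene Krt12 was listed at 0 in all 3.

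**Figure D4:**
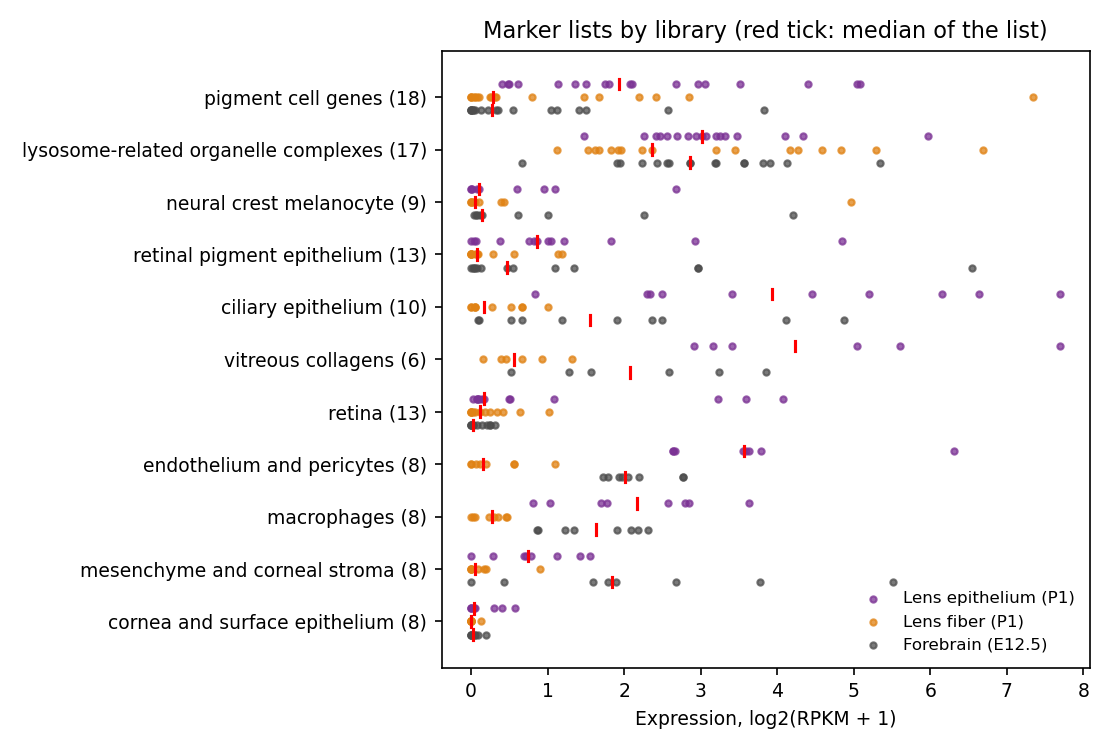
Each point is a gene of a marker list (rows, with the number of genes measured), placed by log2(RPKM + 1) in lens epithelium, lens fiber and forebrain, 1 library each, with a red tick at the median of the list. Ciliary, vitreous collagen and endothelium and pericyte genes lie further right in epithelium than in fiber, and cornea genes lie near 0 in all 3 libraries.

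Genes next to the members on the chromosome were checked because reads of overlapping genes could be mixed, and the labels do not say whether the authors' counting used strand. The RefSeq span of Pmel overlaps those of Rab5b, Cdk2 and Dgka, so its value is less certain than the others. Cdk2 had 12.2 RPKM in lens epithelium, 0.323 RPKM in lens fiber and 20.1 RPKM in forebrain, Rab5b had 11.9, 9.53 and 11.8 RPKM, and Dgka had 1.02, 0.290 and 0.839 RPKM, so none of them had the pattern of Pmel. The spans of the 6 other members overlapped no other protein-coding gene with a value. Of the nearest genes on either side, Lurap1l next to Tyrp1 was also at least 4-fold higher in epithelium than in both other libraries, at 11, 0.398 and 1.62 RPKM in epithelium, fiber and forebrain. Of all genes at 1 RPKM or more in any library, 2.0% were. Nox4 next to Tyr and Gpc6 next to Dct came close, with log2 ratios of 2.41 and 3.09 over fiber and 1.94 and 1.77 over forebrain.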

How the data were processed

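RNA from 3 libraries (lens epithelium and lens fiber at P1, forebrain at E12.5) was analysed. Values are RPKM per gene symbol, as deposited by the authors. The submitters' processing notes name build mm9 with Cuffdiff, Cufflinks (version 2) and TopHat2 (version 2), without saying what each did, and the libraries were strand-specific dUTP libraries of total RNA per the labels' protocols. The labels state neither the gene annotation nor how libraries were scaled to each other. The ChIP and FAIRE lists lie on mm9, no mm9 annotation was used, and chromatin at the 7 genes was not analysed here. Total reads are unknown, and RPKM gives no counting interval.

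Libraries were compared by log2((RPKM + 1)/(RPKM + 1)). A gene counted as 4-fold higher or lower where this reached 2 in size and it had at least 1 RPKM in either library. With 1 library in each group, p-values could not be had. RefSeq tables of GRCm38.p6 matched 23792 of 23947 symbols and gave gene types (20418 protein coding), neighbours and promoters. Promoters were searched on both strands. The 17 lists of other genes had 165 entries for 156 different genes, and 154 of them have values here (Cpamd8 and Ahsp were not analysed here). The 7 genes, the lists and the comparisons were chosen with earlier results of these data known. All 7 were to be named, and of each list the genes 4-fold above both other libraries, the 5 highest in epithelium and defining markers at 0. A few others (Slc24a4, Tfe3, the low pigment and marker genes) were named after their values were seen. Alternatives were pseudocounts of 0.1 and 5, a 2-fold threshold, no filter and 2 rescalings. Code was tested on simulated data. Python 3.11.15, numpy 2.4.6 and pandas 2.3.3 were used.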

Additional observations from a re-analysis of the deposited data

How the results depend on the processing

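The counts of the 7 genes past 4-fold depended on the pseudocount. With 5 RPKM added, 3 members were past 4-fold for lens epithelium over forebrain in place of 7, 0 for lens fiber over forebrain in place of 2, and 4 for epithelium over fiber in place of 6. A larger pseudocount shrinks every ratio by construction, most in low genes such as Tyr, and Dct, with 24.1 RPKM in epithelium, went under the threshold over forebrain because its ratio of RPKM was 5.10. With no filter, the share of all genes past 4-fold in either direction was 5.99% for epithelium over fiber (11.9% with the filter), 4.18% for epithelium over forebrain (7.93%) and 9.04% for fiber over forebrain (17.7%), since more low genes enter. Of 84 member ratios recomputed, 53 moved by less than 1.5 times, 31 moved by more, all 31 of them with another pseudocount, and none past 4-fold changed direction. The log2 ratio of Mitf for epithelium over fiber, -0.34, became 0.10 when rescaled without crystallins. A pseudocount of 0.1 and a 2-fold threshold each gave 6, 7 and 3 members past the threshold in the 3 comparisons. The rescalings moved the median of all genes for epithelium over fiber to 0.81 (without crystallins) and 0.02 (median ratio), against 0.42 as deposited, and the counts of members stayed at 6, 7 and 2. The motif CATGTG was in 3 members' windows under all 3 settings. No paired analysis was possible because each group held 1 RNA library. What limits these results is the single library per group and the unknown depth.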
